A study of Mus musculus with 4 samples.

Results

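The 5-day comparison set 1 RNA sequencing library of Menin knockout (KO) Th2 cells against 1 library of wild-type (WT) Th2 cells. Both came from C57BL/6 mice. Helper T cells carrying CD4 were taken from the spleen and grown for 5 days, and both genotypes received the same cytokines, 15 ng/ml of IL-2 together with 10 ng/ml of IL-4. The series holds 4 libraries, and the other 2 are a WT and a KO library of a longer culture named as 3 weeks. In that culture the cells then rested for 2 days with no cytokine and were stimulated again through the T cell receptor for 5 days while IL-2 was added and IL-4 was blocked, steps shorter in sum than the name. The way in which Menin was deleted, the age of the mice and any pooling of animals were not given in the sources used here. Lines of the same gene symbol were summed, and a symbol was compared when its mean over the 2 five-day libraries was at least 1 FPKM (fragments scaled to transcript length and library depth). This kept 10867 of 23284 symbols. Of these, 10483 reached 1 FPKM in both libraries, 262 only in KO and 122 only in WT.

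Menin is a scaffold protein that joins the MLL1 and MLL2 complexes, members of the Trithorax group that methylate lysine 4 of histone H3 at active genes. It is best known as the product of a tumour suppressor gene of endocrine glands. Th2 cells are the helper T cells that make IL-4, IL-5 and IL-13 under the transcription factor GATA3, and in them Trithorax and Polycomb proteins are known to act on the cytokine genes and on genes of other T cell fates. Granzymes and perforin are by contrast the tools of killer T cells and natural killer (NK) cells.

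Each group held 1 library, so no difference below has a replicate check and no test of the conditions was possible. A gene is described as higher or lower in KO where log2((KO + 1)/(WT + 1)) was at least 1 in size, which is a 2-fold difference on a scale where low genes look closer than they are. Pairs of values give the WT library first. Intervals are exact Clopper-Pearson 95% intervals on reads inferred from the values, and they cover counting error only. Inferred depth was 20.7 M reads in WT and 22.6 M in KO. Whether the libraries came from separate cultures or mice is not stated. In bulk RNA, fewer cells that express a gene and less of its RNA per cell cannot be told apart.

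The labelled cell type was checked against markers. The 9 matched CD4 T cell markers summed to 2329.7 against 2432 FPKM, and Gata3 had 72.8 against 69.8 FPKM. The neutrophil genes S100a8, S100a9, Camp and Ngp were listed at 0 in both libraries, as was the B cell factor Pax5. Markers of B cells summed to 1.66 against 2.79 FPKM, of CD8 T cells to 4.38 against 5.7 FPKM, of macrophages and monocytes to 4.31 against 9.43 FPKM, of dendritic cells to 0.589 against 4.29 FPKM and of NK cells to 1.93 against 10.2 FPKM. Of the CD8 T cell markers Cd8b1 held most of the sum, at 4.35 against 5.16 FPKM, and Cd8a had 0.033 against 0.54 FPKM. Mast cell and basophil markers summed to 14.6 against 25 FPKM, of which the protease gene Cpa3 held 14.4 against 21.6 FPKM. Sums were also higher by value in KO for NKT cells (1.16 against 4.28 FPKM) and innate lymphoid cells of the ILC2 type (3.18 against 6.38 FPKM). The same held for stroma and endothelium (49.1 against 52.2 FPKM), gamma-delta T cells (0.129 against 0.171 FPKM) and eosinophils (0 against 0.208 FPKM). Erythroid, platelet and plasma cell markers and Foxp3 were lower by value in KO, plasma cell markers only slightly. Erythroid markers summed to 12.2 against 3.75 FPKM, and among them the globin gene Hba-a1, at 8.75 against 3.45 FPKM, is itself past 2-fold. The regulatory T cell factor Foxp3 had 3.61 against 1.66 FPKM. A wider list of regulatory T cell genes did not share this direction. Of 12 compared members 2 were higher and 0 lower, 8 had a ratio above 0, and the median log2 ratio was 0.35. Platelet markers summed to 0.302 against 0.199 FPKM and plasma cell markers to 103 against 98.9 FPKM, the latter almost all Xbp1, which is not particular to plasma cells.

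Men1, which encodes Menin, lies on chromosome 19 from 6334979 to 6340894 (GRCm38). It had 32.8 FPKM in the WT library and 10.3 FPKM in the KO library, so the KO value was 31.5% of the WT value (counting interval 28.6% to 34.7%). It was lower in the library labelled KO. Since values are per gene, the exons behind the remaining reads are unknown. Of 19 compared genes of MLL complexes and their partners, Men1 was the 1 lower gene and 0 were higher. Mll1, a histone methyltransferase that binds Menin, had 25.3 against 25.1 FPKM, and its relative Wbp7 had 21.5 against 20.1 FPKM. Psip1, which encodes the chromatin tether LEDGF of the MLL1 complex, had 64.5 against 55.2 FPKM. The members other than Men1 lay between -0.26 and 0.22 on the log2 scale, and the list median was -0.17.

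Over all compared symbols, 295 (2.71%) were higher and 93 (0.856%) were lower in KO, which together made 388 (3.57%). Short RNA genes, whose FPKM is unreliable at their length, held 36 of the higher and 42 of the lower symbols. Without them 10732 genes remained, of which 259 (2.41%) were higher and 51 (0.475%) lower, so 83.5% of the 310 genes (2.89%) that stood apart were higher. All shares of gene groups below are to be read against these 2.41% and 0.475%, and all group medians against the median of -0.02 over all compared genes. Of all compared genes 45.8% had a ratio above 0 and 54.2% below 0, which is the background for counts of signs. A gene under 1 FPKM in one library was compared only through its value in the other, so the filter favoured a difference. A gene near 0 in one library could hardly be level, while a gene just under 1 FPKM could be. Such members past 2-fold are named where their group is counted. Higher genes outnumbered lower ones in each of 4 ranges of expression. Between a mean of 1 and 5 FPKM, 126 of 2716 genes were higher and 17 lower, and at a mean of 100 FPKM or more, 19 of 695 were higher and 2 lower. Just inside the 2-fold rule were Ptpn3, at 3.96 against 8.94 FPKM, and Gypc, at 7.71 against 3.33 FPKM. Just outside lay Slc31a2, at 3.98 against 8.94 FPKM, and Bcl2, at 12.1 against 5.69 FPKM.

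**Figure D1:**
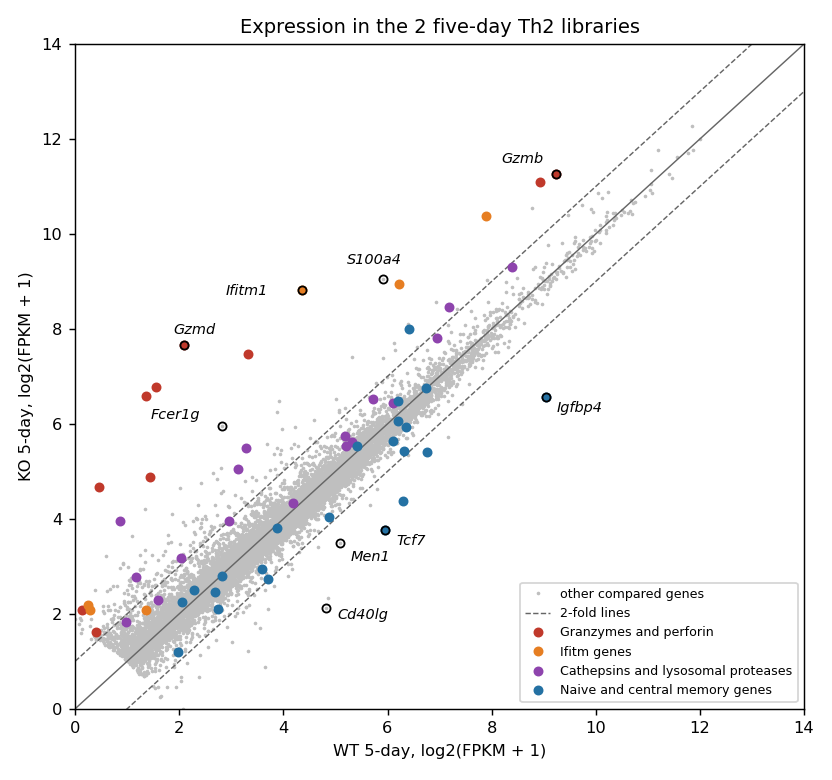
Level of each compared gene without short RNA genes in the WT library (x axis) and the KO library (y axis), as log2(FPKM + 1), with 1 point per gene, the line of equal level and dashed lines at 2-fold. Granzymes and perforin and the Ifitm genes lie above the upper dashed line, except Ifitm6, while Igfbp4, Tcf7, Cd40lg and Men1 lie below the lower one.

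Cytotoxic protease genes had the highest median ratio of the 60 gene lists. Of 11 granzyme and perforin genes 10 were compared, and 10 of 10 were higher in KO, with a median log2 ratio of 3.80. Gzmk, Gzmn and Gzmf were under 1 FPKM in WT and so entered through their KO value. The 1 member not compared was Gzmm, at 0.574 against 0.689 FPKM. The 5 genes Gzmc to Gzmg lie in 1 row on chromosome 14 and are close copies. Their longest transcripts were 69.9% to 90.4% identical, so the counting could have split reads between them and each single value is uncertain. In GENCODE the antisense gene Gm4022 overlaps Gzmf, and the strand setting of the counting is unknown. Together they came to 16.1 against 608 FPKM. The 250 bases before each start, from RefSeq on GRCm38.p6 and read 5′ to 3′ on the minus strand, are shown because these genes moved together. Only 1 start per gene was used. The Gzmc window lies inside the span of its gene, chr14:56231397-56241647, and sequence further upstream was not searched. Capitals mark each match to TGTGGT, the core of the Runx motif, or to its reverse complement.

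Gzmc (chr14:56234658-56234907): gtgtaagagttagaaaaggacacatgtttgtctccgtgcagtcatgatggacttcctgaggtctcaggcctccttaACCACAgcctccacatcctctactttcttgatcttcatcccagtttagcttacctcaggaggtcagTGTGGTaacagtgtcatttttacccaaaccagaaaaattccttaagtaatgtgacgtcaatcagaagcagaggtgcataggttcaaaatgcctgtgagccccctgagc

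Gzmd (chr14:56132594-56132843): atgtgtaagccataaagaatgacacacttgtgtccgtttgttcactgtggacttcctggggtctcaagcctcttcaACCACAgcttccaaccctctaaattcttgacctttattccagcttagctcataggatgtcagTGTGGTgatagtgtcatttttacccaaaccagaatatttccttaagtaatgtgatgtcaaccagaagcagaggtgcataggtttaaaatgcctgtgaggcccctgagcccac

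Gzme (chr14:56120626-56120875): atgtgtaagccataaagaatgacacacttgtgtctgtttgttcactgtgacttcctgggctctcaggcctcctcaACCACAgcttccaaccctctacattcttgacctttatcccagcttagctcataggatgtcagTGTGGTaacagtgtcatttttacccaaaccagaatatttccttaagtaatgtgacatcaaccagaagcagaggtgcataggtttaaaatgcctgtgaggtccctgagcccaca

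Gzmf (chr14:56211408-56211657): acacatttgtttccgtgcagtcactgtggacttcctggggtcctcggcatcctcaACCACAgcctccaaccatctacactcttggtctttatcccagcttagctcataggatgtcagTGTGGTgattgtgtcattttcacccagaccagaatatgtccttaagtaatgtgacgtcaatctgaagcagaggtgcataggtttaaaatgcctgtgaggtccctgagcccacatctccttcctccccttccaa

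Gzmg (chr14:56159580-56159829): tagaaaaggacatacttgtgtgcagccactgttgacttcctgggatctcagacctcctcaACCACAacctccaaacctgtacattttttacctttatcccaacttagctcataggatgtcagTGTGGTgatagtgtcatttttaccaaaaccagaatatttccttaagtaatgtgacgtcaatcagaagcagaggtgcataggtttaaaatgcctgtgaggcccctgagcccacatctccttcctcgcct

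These 5 windows were 71.5% to 94.8% identical in pairs, and each held 2 Runx matches. The first bases of the 2 matches were 62 bases apart in Gzmd, Gzme, Gzmf and Gzmg and 66 bases apart in Gzmc. Gzmb, at the end of the same row, also held 2 matches, while Gzma and Prf1 held 1 each and Gzmn and Gzmk held 0. Of 27025 promoter windows of this length in the table, 14.2% held at least 1 TGTGGT on either strand. The share with 2 matches was not counted. Since the 5 windows are close copies, their matches are not separate observations. The other motifs searched on both strands did not overlap with it in these windows. AGGTGTGA, a T-box motif (1.14% of windows), and TTCNNNGAA, a STAT motif (7.18%), had 0 matches in the 10 granzyme and perforin windows. The interferon response motif, read as GAAA, then 2 bases of any kind, then GAAA (3.04%), had a match in Gzma. A match is a description of letters and not evidence of binding. The Runx genes themselves had 15.7 against 15.2 FPKM for Runx1, 2.81 against 7.63 FPKM for Runx2 and 39.7 against 54.5 FPKM for Runx3, of which Runx2 was past 2-fold.

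By amount, most of the granzyme RNA was Gzmb and Gzma. Gzmb, which cleaves caspases in target cells, had 599 FPKM in the WT library and 2469.8 FPKM in the KO library, 4.12-fold higher (counting interval 4.05 to 4.2). Gzma, the other abundant granzyme, had 485 against 2197 FPKM, 4.53-fold higher (4.42 to 4.64). Perforin, Prf1, which forms the pore through which granzymes pass, had 1.71 against 28.6 FPKM (16.7-fold, 13.2 to 21.7). Together the granzymes and perforin made up 0.236% of all FPKM in WT and 1.12% in KO. Genes linked to granule content, loading and release were counted in a further list. It holds the cathepsin genes Ctsd and Ctsl and so overlaps the cathepsins below. Of 20 compared granule machinery genes 5 were higher and 0 lower, with a median of 0.37. The 5 were Nkg7, a granule membrane protein, at 14.1 against 88.2 FPKM, the death ligand gene Fasl at 1.02 against 4.31 FPKM, the proteases Ctsd and Ctsl, and Serpinb9, an inhibitor of granzyme B, at 3.29 against 7.87 FPKM. Genes of granule docking and fusion were near level. Rab27a had 23.1 against 24 FPKM, Unc13d had 40.9 against 43.1 FPKM and Stxbp2 had 45 against 48.6 FPKM.

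Interferon-induced membrane proteins of the Ifitm family, which hinder the entry of viruses, were a further group. Of 6 compared members 5 were higher and 0 lower, with a median of 2.21. Ifitm5 and Ifitm7 were compared only through their KO value. Ifitm2 had 237 FPKM in the WT library and 1328 FPKM in the KO library, 5.59-fold higher (5.35 to 5.85). Ifitm3 had 73.4 against 489 FPKM and Ifitm1 had 19.4 against 451 FPKM, while Ifitm6, at 1.56 against 3.25 FPKM, was the member under 2-fold. The longest transcripts of the 6 were 31.5% to 66.8% identical in pairs, and whether reads were split between members was not tested. As a whole it came to 332 against 2278 FPKM. Among the 6 the interferon response motif was found in the window of Ifitm2 alone. The windows of Ifitm1 and Ifitm2 lie inside the spans of their genes, and sequence further upstream was not searched.

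Most other interferon-stimulated genes were near level at this time. Of 43 compared members 2 were higher, Mx1 at 5.06 against 12.1 FPKM and Gbp2 at 35.3 against 79.7 FPKM, and 0 were lower. The median was 0.21, and 33 of the 43 had a ratio above 0. Mx1 and Gbp2 are dynamin-like and guanylate-binding proteins of antiviral defence. Isg15, a ubiquitin-like protein that interferon induces strongly, had 5.41 against 4.61 FPKM, and Ifit1 had 1.92 against 1.45 FPKM. Of 26 antigen presentation genes 2 were higher, the MHC class II chains H2-Aa at 0.387 against 1.83 FPKM and H2-Ab1 at 17.1 against 37.8 FPKM, and 0 lower, and 24 of the 26 had a ratio above 0, against 45.8% of all compared genes (median 0.41). H2-Aa was compared only through its KO value. The class I gene H2-K1 had 1114 against 1717 FPKM. Ly6 genes encode small membrane-anchored proteins of leukocytes, and 3 of 7 were higher and 0 lower, with a median of 0.95. Among them Ly6c1 had 83.9 against 256 FPKM and Ly6c2 59.5 against 166 FPKM.

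Calcium-binding S100 genes did not all move one way. Of 9 compared members 3 were higher and 1 lower. Of the 9, 8 had a ratio above 0, against 45.8% of all compared genes, with a median of 0.62. S100a4, a regulator of cell motility, had 59.6 against 532 FPKM, 8.93-fold higher (7.87 to 10.2), S100a11 had 159.7 against 342 FPKM and S100a5 had 1.47 against 6.73 FPKM. S100a3, at 13.1 against 5.01 FPKM, was the lower member, and the abundant S100a6 had 769 against 901 FPKM.

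Lysosomal proteases leaned to higher values in KO. Of 17 compared cathepsins, related proteases and their inhibitors 7 were higher and 0 lower, and 17 of 17 had a ratio above 0 (45.8% of all compared genes), with a median of 0.87. Napsa, an aspartic protease, had 0.825 FPKM in the WT library and 14.6 FPKM in the KO library, 17.7-fold higher (11.7 to 28.4), and was compared only through KO. Lgmn, the asparagine endopeptidase that matures cathepsins, had 8.73 against 43.8 FPKM, and Ctsw, a cathepsin of killer lymphocytes, had 7.72 against 32.3 FPKM. Ctsd, the most abundant cathepsin of the higher members, had 145 against 352 FPKM. Ctsc, which activates granzymes by trimming their pro-peptide, had 17.2 against 19.2 FPKM and was not past 2-fold. The whole group came to 879 against 1681 FPKM.

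Several receptors and adaptors usually found on NK and myeloid cells were higher in KO. Of 7 compared Fc receptor and adaptor genes 4 were higher and 0 lower, of which Fcgr2b and Tyrobp were compared only through KO. Fcer1g, the signalling chain shared by Fc receptors, had 6.11 FPKM in the WT library and 61.3 FPKM in the KO library, 10.0-fold higher (7.75 to 13.4). Fcgr3, an activating receptor for IgG, had 5.64 against 27.5 FPKM, and Tyrobp, the DAP12 adaptor of NK receptors, had 0.66 against 2.79 FPKM. Cd247, the zeta chain of the T cell receptor, had 149.5 against 95.9 FPKM. NK-type receptors were low. Of 25 matched genes 9 were compared, and 5 were higher and 0 lower. Of these 5, Cd244, Klrc1, Klrg1 and Klrb1f passed the filter only through their KO value, so neither their share nor the median of 1.13 is independent of the filter. The median was 0.12 with no filter on low values, and with a pseudocount of 5 it was 0.40 and 0 members were higher. Cd244 had 0.229 against 2.72 FPKM, Klrc1 0.45 against 3.17 FPKM, Klrg1 0.701 against 3.25 FPKM, Cd160 1.14 against 4.22 FPKM and Klrb1f 0.477 against 2.24 FPKM. Most defining NK cell markers were low in the same libraries, and 2 of the 6 matched reached 1 FPKM in either. Eomes, at 1.8 against 8.42 FPKM, held most of both NK sums. Klra8 was listed at 0 in both, Ncr1 had 0 against 0.244 FPKM and Klrb1c had 0.119 against 1.51 FPKM. Klra4 and Klra9 were at or near 0 in both. The dendritic cell markers Itgax and Xcr1 had 0.0501 against 2.45 FPKM and 0.394 against 1.75 FPKM. Flt3 had 0.0139 against 0 FPKM, Zbtb46 0.131 against 0.0727 FPKM and Siglech 0 against 0.02 FPKM. Of the macrophage and monocyte markers Csf1r had 0.013 against 0.012 FPKM, Lyz2 0.112 against 0.154 FPKM, Itgam 0.203 against 0.392 FPKM, Cd14 0 against 0.509 FPKM, Fcgr1 0 against 0.0184 FPKM and Cd68 3.98 against 8.35 FPKM, so 5 of the 6 were higher by value in KO and Cd68 held most of the sum. The part of other cell types in these differences was not tested.

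**Figure D2:**
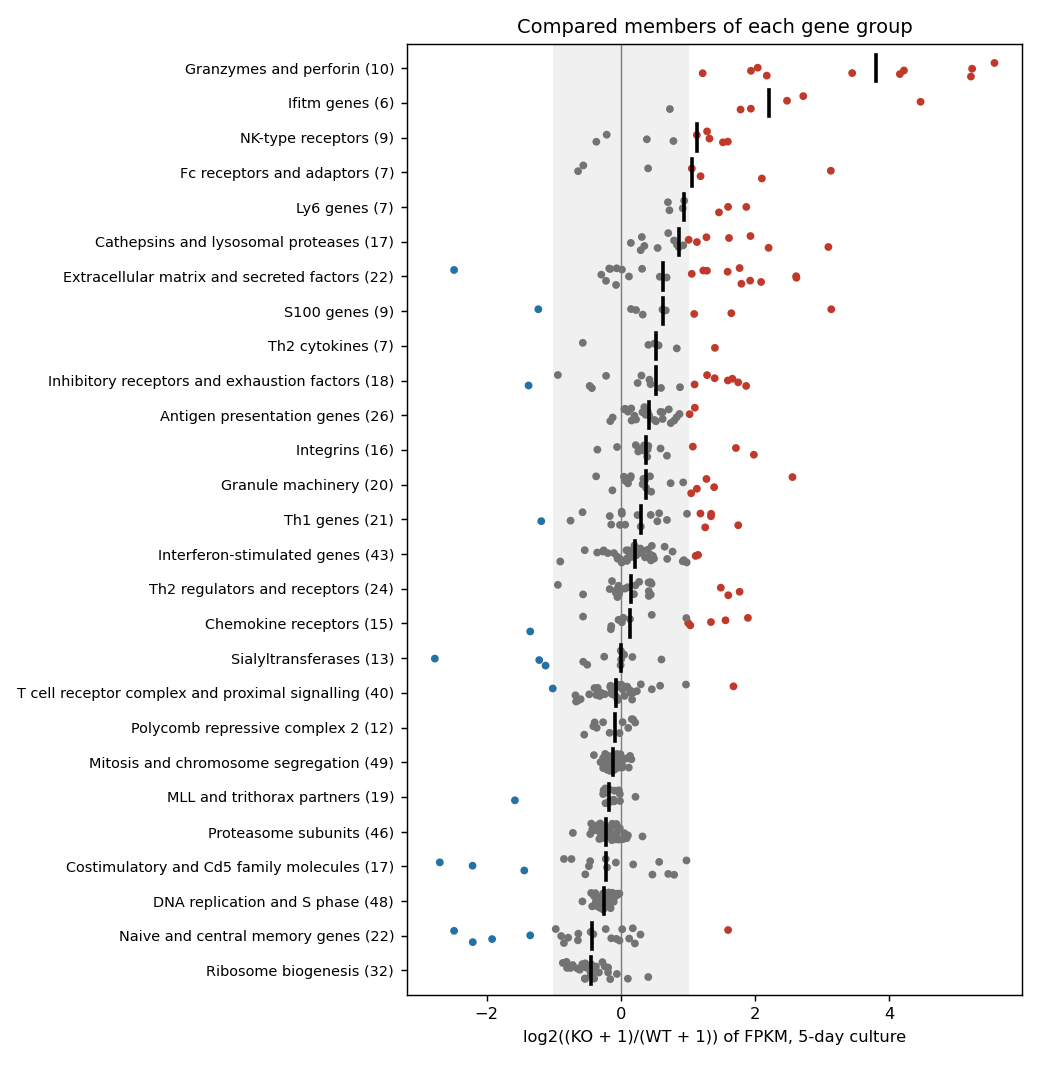
Log2((KO + 1)/(WT + 1)) of each compared member of 27 gene groups (number of members in parentheses), with 1 point per gene, a vertical bar at the group median and a grey band under 2-fold, with members higher in KO in red and lower in blue. Granzymes and perforin and the Ifitm genes have medians of 3.80 and 2.21, while the 32 ribosome biogenesis genes lie within the band with a median of -0.45.

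Receptors for chemokines differed in both directions. Of 15 compared members 5 were higher and 1 lower. Ccr2, a receptor of inflammatory chemokines, had 11.9 against 46.9 FPKM, and Ccr1 had 2.2 against 8.45 FPKM. Ccr7, which guides T cells into lymph nodes, was the lower one, at 107 against 41.5 FPKM, 38.7% of WT (36.5% to 41%). Th2-associated Ccr4 had 106 against 71.2 FPKM and Ccr8 had 37.6 against 36.7 FPKM, both under 2-fold.

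Adhesion and matrix genes were counted in separate lists. Of 16 integrins 3 were higher and 0 lower, namely Itga1, a collagen receptor subunit, at 0.174 against 3.64 FPKM, Itgax at 0.0501 against 2.45 FPKM and the common beta subunit Itgb1 at 53.9 against 115 FPKM. Itga1 and Itgax were compared only through KO, and with a mean of at least 5 FPKM 1 integrin was higher. Of 22 genes of the extracellular matrix and secreted factors 10 were higher and 1 lower, and Col4a1, Col4a2, Trf and Hgfac among the higher ones were compared only through KO. With a mean of at least 5 FPKM 5 were higher. Ecm1, a secreted glycoprotein that Th2 cells are known to express, had 437 FPKM in the WT library and 1494 FPKM in the KO library, 3.42-fold higher (3.33 to 3.52), and was among the largest gains by amount. Osteopontin, Spp1, had 14.7 against 58.7 FPKM, galectin-3, Lgals3, had 38.8 against 169 FPKM, the iron carrier Trf had 0.517 against 8.29 FPKM and the collagen gene Col18a1 had 3.06 against 24 FPKM. Igfbp4, which binds insulin-like growth factors, was the lower member, at 527 against 93.4 FPKM.

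Genes of helper T cell identity included a few that stood apart. Of 7 compared Th2 cytokines and related factors, 1 was higher, Csf1 at 4.3 against 13 FPKM, and 0 lower. With a pseudocount of 5, 0 of these cytokines were higher. A ratio above 0 was found for 6 of the 7, against 45.8% of all compared genes, with a median of 0.53. Of 24 Th2 regulators and receptors 3 were higher and 0 lower. Maf, an activator of Il4, had 13.7 against 43.7 FPKM, and Bhlhe40, a transcription factor of cytokine-producing T cells, had 23.2 against 67 FPKM. The third was Ecm1. Irf4, needed for Th2 differentiation, had 37.4 against 19.1 FPKM and lay just under 2-fold on the lower side. Of 21 Th1 genes 5 were higher and 1 lower. Tbx21, the Th1 master regulator T-bet, had 8.08 against 20.7 FPKM, Eomes, its relative in killer cells, had 1.8 against 8.42 FPKM, and the IL-12 receptor chain Il12rb2 had 6.61 against 18.3 FPKM. Ccl4, a chemokine of activated killer cells, was the lower one, at 3.46 against 0.962 FPKM, compared only through WT. Ifng was not compared, at 0.477 against 0.70 FPKM.

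Of 49 T cell transcription factors 4 were higher and 1 lower. Besides Tbx21, Eomes and Runx2 the higher factor was Trp73, the p53 relative p73, at 1.52 against 17.5 FPKM, and the lower one was Tcf7, the factor of naive and stem-like T cells, at 61.3 against 12.5 FPKM. In the AP-1 group Jun had 2.64 against 7.52 FPKM and Fosl2 5.05 against 12.4 FPKM, and both were higher, while Batf3 was lower at 24.3 against 9.67 FPKM. Bach2, a repressor of effector genes, had 2.96 against 1.3 FPKM, under 2-fold on this scale. Of 23 NF-kappaB genes 0 were higher and 0 lower.

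Inhibitory receptors were also more often higher than lower. Of 18 compared inhibitory receptor and exhaustion genes 7 were higher and 1 lower. Cd244 among the higher ones was compared only through KO. Havcr2, which encodes TIM-3, had 2.47 against 11.7 FPKM, Lag3 had 4.04 against 15 FPKM and Pdcd1, which encodes PD-1, had 4.38 against 13.2 FPKM. Btla, an inhibitory receptor of resting lymphocytes, was the lower one, at 3.09 against 0.58 FPKM, compared only through WT. Ctla4 had 91.4 against 113 FPKM and was near level.

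**Figure D3:**
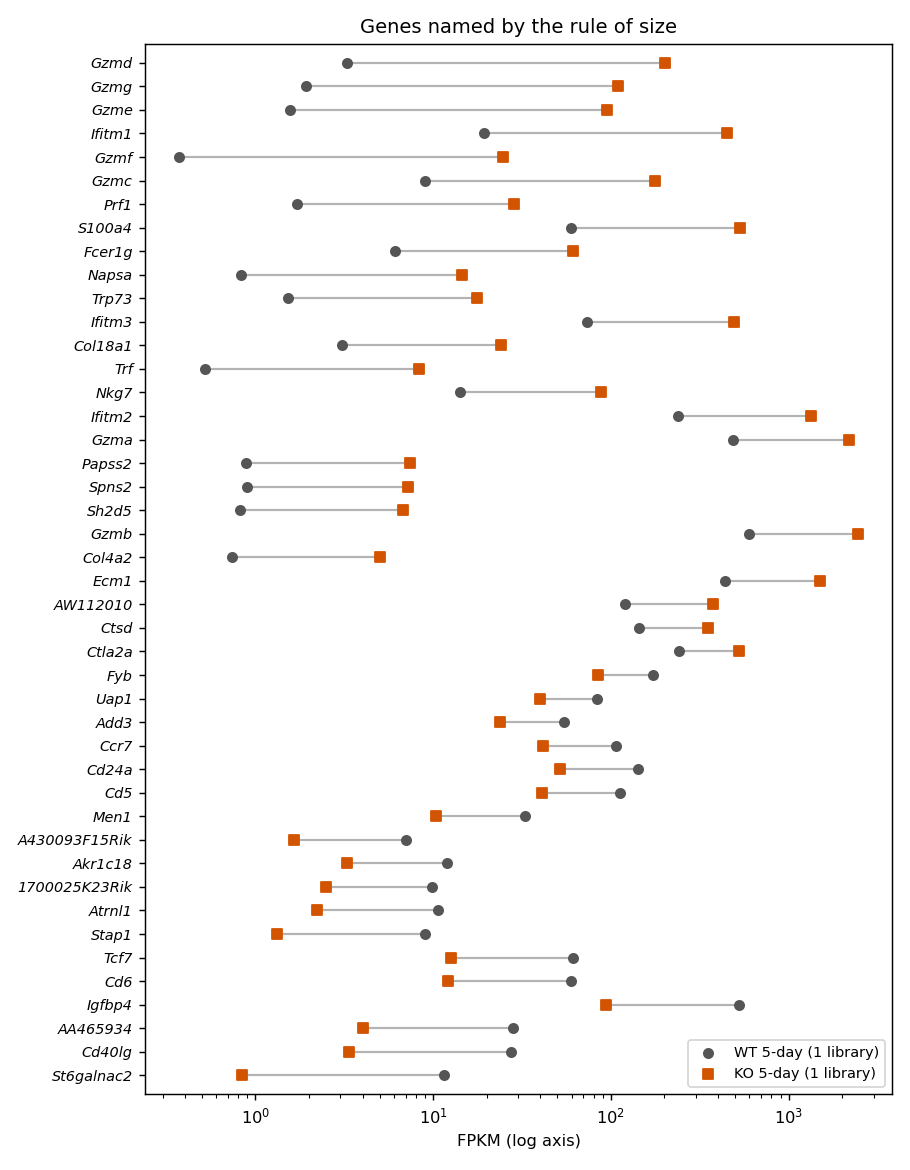
FPKM on a log axis of 44 of the 45 genes named by the rule of size, with the WT library as circles and the KO library as squares, 1 library each, ordered by log2 ratio. Gzmd stands at the top, at 3.27 against 202 FPKM, and St6galnac2 at the bottom, at 11.6 against 0.840 FPKM.

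Lower genes included markers of resting T cells and signals of T cell help. In the naive and central memory list 4 of 22 were lower and 1 was higher, with a median of -0.43. Igfbp4, Tcf7 and Ccr7 were among the lower members, and their values are given with their groups. Klf2, which keeps T cells quiescent and circulating, had 78.6 against 42 FPKM, under 2-fold. Of 17 costimulatory and Cd5 family genes 3 were lower and 0 higher. Cd40lg, the helper signal to B cells, had 27.2 against 3.36 FPKM, 12.3% of WT (9.67% to 15.7%). Cd5 and Cd6, neighbouring receptors that dampen signals of the T cell receptor, had 112 against 40.7 FPKM and 59.5 against 12.1 FPKM. Icos had 189 against 113 FPKM and Cd28 105 against 76.3 FPKM, neither past 2-fold.

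Among enzymes that add sialic acid to glycans, 3 of 13 were lower and 0 higher. St6galnac2 had 11.6 against 0.84 FPKM, 7.27% of WT (5.31% to 9.85%), the lowest ratio of the named genes. It was compared only through WT. St6gal1, which caps N-glycans, had 7.41 against 2.87 FPKM, and St3gal6 had 16.9 against 6.7 FPKM. The other lower genes named by size included Cd24a, a small sialylated surface protein, at 141 against 51.8 FPKM, the adaptor gene Stap1 at 8.98 against 1.32 FPKM, the membrane skeleton gene Add3 at 54.8 against 23.7 FPKM and the UDP-sugar enzyme Uap1 at 82.9 against 39.8 FPKM. Named by size without a group were AA465934 at 28.1 against 4.03 FPKM, Atrnl1 at 10.7 against 2.23 FPKM, Akr1c18, a progesterone-inactivating reductase, at 12 against 3.26 FPKM, and 1700025K23Rik at 9.9 against 2.5 FPKM. On the higher side they were AW112010 at 121 against 377 FPKM, the protease inhibitor gene Ctla2a at 239.9 against 523 FPKM and 4 genes under 1 FPKM in WT. These 4 were Papss2, an enzyme of sulfate activation, at 0.887 against 7.38 FPKM, Spns2, an exporter of sphingosine-1-phosphate, at 0.897 against 7.24 FPKM, Sh2d5 at 0.814 against 6.8 FPKM and the collagen gene Col4a2 at 0.738 against 5.04 FPKM.

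The core of the T cell receptor pathway was near level. Of 40 compared members 1 was higher, the kinase Txk at 1.1 against 5.71 FPKM, and 1 lower, the adaptor Fyb at 173 against 85 FPKM, which lay at -1.01 on the log2 scale and within 2-fold with upper-quartile scaling. Cd3e had 203 against 240.3 FPKM, Lat had 259 against 197 FPKM and Zap70 had 61.5 against 75.9 FPKM. Of 30 genes of the common gamma chain and IL-2 receptor family 0 were higher and 0 lower. Il2ra, the high-affinity IL-2 receptor chain, had 324 against 257 FPKM.

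Among chromatin regulators, 0 of 12 Polycomb repressive complex 2 genes, 0 of 20 Polycomb repressive complex 1 genes and 0 of 10 DNA methylation genes were past 2-fold in either direction. Ezh2, the histone H3 lysine 27 methyltransferase of the former, had 114 against 77.7 FPKM, 68.3% of WT (65.5% to 71.2%). Bmi1 had 15.8 against 14.3 FPKM and Dnmt1 had 144 against 121 FPKM.

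Genes of growth showed small differences, most of them in one direction. Of 32 ribosome biogenesis genes 0 were higher and 0 lower, but 30 had a ratio under 0, against 54.2% of all compared genes, and the median of -0.45 lay under that of all compared genes (-0.02). Gar1, which guides pseudouridine formation in ribosomal RNA, had 44.5 against 24 FPKM, and Nop58 had 68.3 against 41.2 FPKM. DNA replication genes were likewise past 2-fold in 0 of 48, with 48 of 48 ratios under 0 (47 with upper-quartile scaling, and 54.2% over all compared genes) and a median of -0.25. The replicative helicase gene Mcm5 had 143 against 108 FPKM. The mitosis genes had a median of -0.11 over 49 members, the glycolysis genes -0.18 over 33 and the proteasome genes -0.22 over 46, each with 0 past 2-fold. Cytoplasmic ribosomal protein genes, which held 12.8% of all FPKM in WT and 12% in KO, had a median of -0.07. The cell cycle inhibitors Cdkn1a, Cdkn1b and Cdkn2a had 107 against 115 FPKM, 39.9 against 44.5 FPKM and 5.29 against 6.01 FPKM, all under 2-fold. In 8 further lists 0 compared genes were past 2-fold, namely 8 Gimap, 8 annexin, 15 TGF-beta receptor and Smad, 50 histone, 32 DNA repair, 11 IL-1 family and alarmin receptor, 16 TNF receptor superfamily and 7 heat shock genes.

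Some genes that stood apart lay next to each other on a chromosome. These counts describe genes and include families of close copies and genes compared only through KO. With a window of 100 kb, 41 of 259 higher genes (15.8%) had a higher neighbour, against 614 of 10399 other compared genes (5.90%). For lower genes the corresponding shares were 5 of 51 (9.80%) and 112 of 10607 (1.06%). The run with the most genes, chr14:56082163-56262334 (GRCm38), held 8, Mcpt8 and Gzmb to Gzmg with Gzmn, and every compared gene in it was higher. Mcpt8, a basophil protease, had 0.0754 against 2.63 FPKM. Like Gzmf and Gzmn it was compared only through KO, so these members could hardly be level. A second run, chr7:140948958-141072400, held Ifitm5, Ifitm2, Ifitm1, Ifitm3 and the glycosyltransferase gene B4galnt4, at 5.29 against 30.4 FPKM. Pairs of higher neighbours included Fcgr2b with Fcgr3, Tbx21 with Tbkbp1 and Col4a1 with Col4a2. Ifitm5, Fcgr2b, Col4a1 and Col4a2 were also compared only through KO. Lower neighbours were Cd5, A430093F15Rik and Cd6 at chr19:10718107-10830062, and Igfbp4 with Ccr7 at chr11:99040005-99155077.

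**Figure D4:**
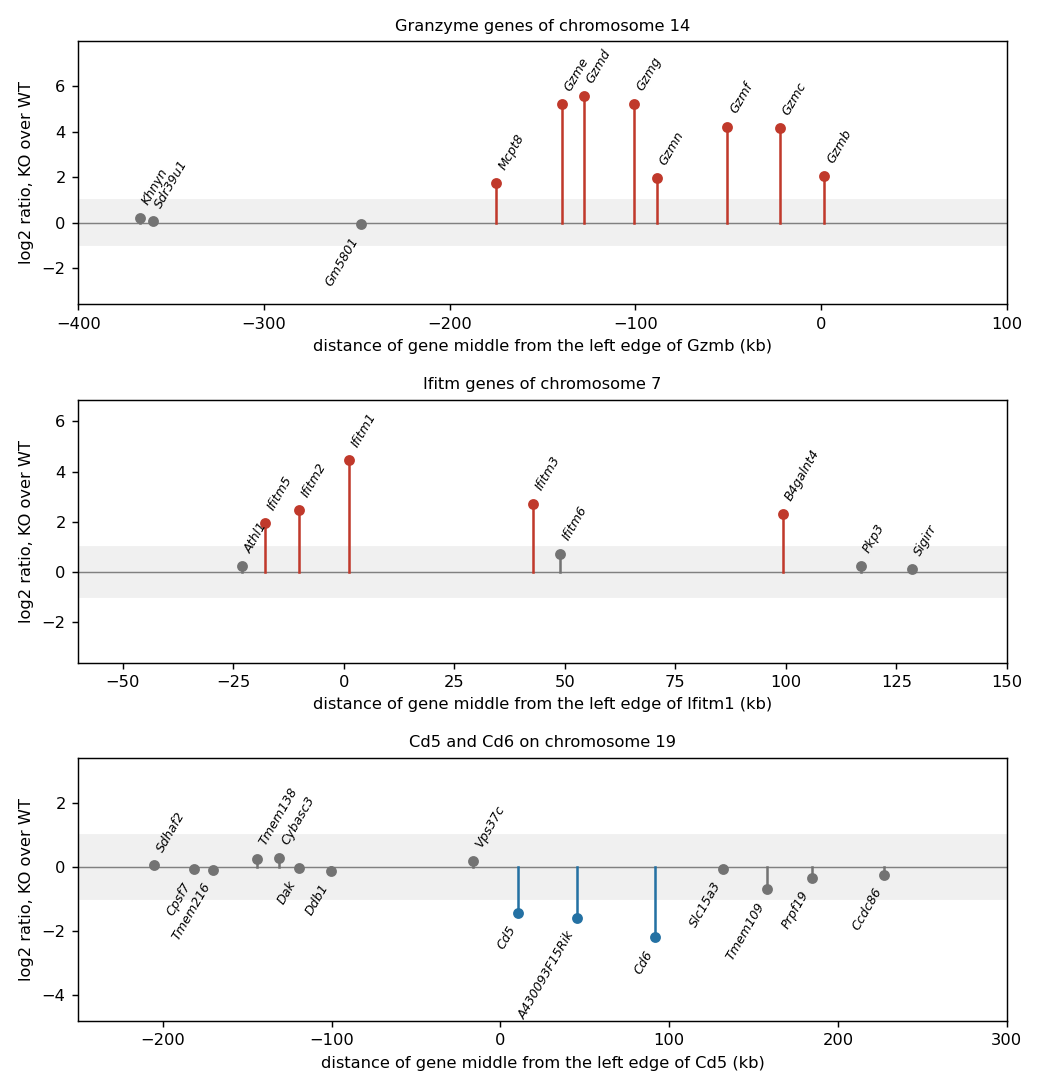
Log2 ratio of each compared gene, as a stem at the middle of the gene, against distance in kb along the chromosome for the granzyme genes of chromosome 14, the Ifitm genes of chromosome 7 and Cd5 with Cd6 on chromosome 19, with the grey band under 2-fold. All 8 genes from Mcpt8 to Gzmb are above the band, Ifitm6 lies inside it among higher neighbours, and the 3 genes from Cd5 to Cd6 are below it between genes within it.

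Chromosome 19, which carries Men1, held 8 of the 51 lower genes, 8 of its 390 compared genes (2.05%). They were Men1, Cd5, A430093F15Rik, Cd6, Ms4a6c, Kcnip2, Add3 and Atrnl1. Cd5 and Cd6 lie 4.38 and 4.45 Mb from Men1. Within 1 Mb of Men1, 73 compared genes had a median log2 ratio of 0.04, with 1 higher and 0 lower.

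The longer culture gave a second pair of libraries that shares no library with the 5-day pair. Over the same 10732 genes, 752 (7.01%) were higher and 821 (7.65%) lower in KO there, 14.7% in all. Of the 259 genes higher at 5 days, 193 (74.5%) were also higher and 4 were lower in the longer culture, and their median log2 ratio was 1.78 there against 1.34 at 5 days. Of the 51 lower genes, 30 (58.8%) were also lower and 3 higher, with medians of -1.67 and -1.28. Gzma reached 322 against 13071 FPKM in the longer culture and Fcer1g 0.186 against 104 FPKM. On the lower side Cd5 had 81.3 against 3.51 FPKM and Igfbp4 115 against 0.372 FPKM there.

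Of 212 genes that were past 2-fold at 5 days and reached 5 FPKM, 30 were within 0.5 log2 units of level in the longer culture. Of these, 24 were higher and 6 lower at 5 days. The share of all compared genes within 0.5 units was not counted. Under 2-fold there were 62 of the 259 and 18 of the 51 genes, against 9159 of all 10732. Some of the 30 were near the floor later, where ratios look level, such as St3gal6 at 0.273 against 0.199 FPKM and Col4a2 at 0.698 against 0.489 FPKM. Maf, given above at 5 days, had 37.5 against 46.3 FPKM in the longer culture. Rgs1, which shuts off chemokine receptor signals, had 83.1 against 273 FPKM at 5 days and 341 against 288 FPKM later, and Ebi3, a chain of IL-27 and IL-35, had 32.7 against 74.9 FPKM and then 34.1 against 34.5 FPKM. Itgb1 had 46.7 against 58.1 FPKM and Cxcr6 128 against 118 FPKM in the longer culture. The difference between the times was not tested for any of them. Ribosome biogenesis genes, with 0 of 32 past 2-fold at 5 days, had 26 lower in the longer culture and a median of -1.38. Interferon-stimulated genes, 2 of 43 higher at 5 days, had 25 of 43 higher there and a median of 1.11. Th2 cytokines had a median of 0.53 at 5 days and -2.04 in the longer culture.

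**Figure D5:**
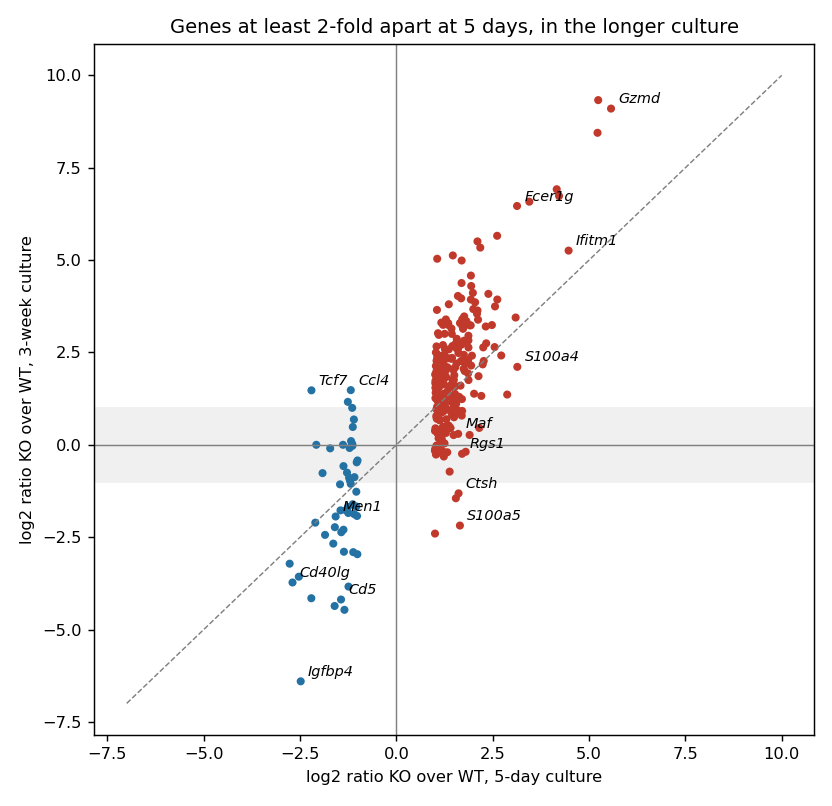
Log2((KO + 1)/(WT + 1)) at 5 days (x axis) against the same in the longer culture (y axis) for genes at least 2-fold apart at 5 days, higher in red and lower in blue, without short RNA genes, with a dashed line of equal ratio and a grey band under 2-fold in the longer culture. Most red points lie above the band (193 of 259), while Ctsh and S100a5 lie below it and Tcf7 and Ccl4 lie above it on the opposite side.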

How the data were processed

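Total RNA was isolated with TRIzol and made into TruSeq stranded libraries, per the labels' protocols. The authors deposited FPKM per gene symbol; the unit was taken from the naming of Cufflinks and from the values. Bowtie 0.12.8, TopHat 1.3.2, Cufflinks 2.0.2 and mm10 are named, per the submitters' processing notes. Annotation, read layout, strand setting and filtering were not given in the sources used here. The deposited tables held 23746 lines, 240 symbols stood on 702 lines and were summed, and 1 KO cell was not a number and was left out. Ratios were log2((KO + 1)/(WT + 1)). Inferred depths were 20.7, 22.6, 23.6 and 21.6 M reads, with WT and KO at 5 days first. They were read from values of low genes, of which 59.6% to 62.3% lay within 0.05 of whole reads, so they are approximate. Python 3.11.15 with pandas 2.3.3 and scipy 1.17.1 was used. Positions come from GENCODE M21 and RefSeq (GRCm38).

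The 60 gene lists, the members and the rule for named genes were chosen with earlier results of these data known. S100pbp, Itgb1bp1 and Itgb3bp were taken out of the S100 and integrin lists after values were seen, since they are not family members. Named genes were Men1, the 15 highest and 15 lowest ratios at 5 FPKM or more in either library, the 10 largest differences in FPKM each way, and genes under 1 FPKM in one library and at least 5 in the other; list members may be named too. Some genes named by this rule are left out of the text. The steps were tested on simulated data. Alternatives were other pseudocounts, filters, scalings, the highest line of a symbol and leaving out short RNA genes.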

Additional observations from a re-analysis of the deposited data

Results flagged for a closer look

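Of the 310 genes past 2-fold at 5 days, 7 were past 2-fold in the opposite direction in the longer culture. Of the 259 higher genes, 4 (1.54%) were lower later, against 7.65% of all compared genes. Of the 51 lower genes, 3 (5.88%) were higher later, against 7.01%. Neither share exceeded that of all compared genes. The 7 were picked because the 2 libraries of one time moved one way and the 2 of the other time the opposite way. The difference between the times was not tested for any of them. Tcf7, the factor of naive T cells, had log2 ratios of -2.21 at 5 days and 1.47 in the longer culture, where its WT level was 0.0622 FPKM. Nt5e, the ecto-enzyme CD73, had -1.26 at 5 days and 1.16 in the longer culture. For the chemokine gene Ccl4 the values were -1.18 at 5 days and 1.48 in the longer culture. The other 4 were higher first and lower later. S100a5 had 1.65 at 5 days and -2.19 in the longer culture, Ctsh, a lysosomal protease, 1.61 at 5 days and -1.31 in the longer culture, Mt3, a metallothionein, 1.54 at 5 days and -1.45 in the longer culture and Cox6b2, a subunit of the respiratory chain, 1.00 at 5 days and -2.40 in the longer culture, where the 5-day value lay at the edge of the 2-fold rule.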

How the results depend on the processing

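The counts of genes past 2-fold depended on how low values were treated. With 295 higher and 93 lower as the starting values, a pseudocount of 0.1 gave 437 higher and 145 lower, and a pseudocount of 5 gave 122 and 56. A mean of at least 5 FPKM gave 165 higher and 75 lower, and leaving out short RNA genes gave 259 and 51. No filter on low values gave 317 and 95, and median-of-ratios scaling, upper-quartile scaling and keeping the highest line of each symbol gave 296, 319 and 295 higher and 93, 90 and 92 lower. The share of higher genes among those apart was 76.0% at first, 68.5% with a pseudocount of 5, 68.8% with the stricter filter and 83.5% without short RNA genes. The 45 named genes kept their direction under every alternative in which they were present. Pseudocounts and filters cannot change a direction, and the scaling factors were 0.998 (median-of-ratios) and 0.973 (upper-quartile). The direction could therefore hardly have changed in genes picked for large differences. Of the 45 named genes, 40 stayed past 2-fold with a pseudocount of 5 and 44 with upper-quartile scaling. With a pseudocount of 5 the higher members numbered 8 of the 10 granzymes and perforin, 3 of the 5 Ifitm genes, 4 of the 7 cathepsins and related genes, 2 of the 5 granule machinery genes, 2 of the 5 chemokine receptors, 2 of the 5 Th1 genes, 2 of the 7 inhibitory receptor genes, 2 of the 4 Fc receptor genes, 1 of the 3 integrins and 6 of the 10 matrix genes, and the lower sialyltransferases numbered 1 of 3. No paired analysis was possible because each group held 1 library. Depth limits genes near 1 FPKM, and nothing here measures variation between mice or cultures.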

Other observations

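Several genes of amino acid supply and growth were lower than in WT at 5 days, short of 2-fold on the log2(FPKM + 1) scale, and were chosen after their values were seen. Myc, a transcription factor of cell growth, had 38.4 against 20.3 FPKM, 52.7% of WT (48.1% to 57.8%). The large neutral amino acid carrier gene Slc7a5 had 52.8 against 28.9 FPKM, 54.7% of WT (51.9% to 57.7%), and the arginine carrier gene Slc7a1 had 14.5 against 8.57 FPKM, 58.9% of WT (49.1% to 70.6%). The folate carrier gene Slc19a1 had 9.09 against 4.61 FPKM, 50.7% of WT (37.1% to 68.6%), and the lactate carrier gene Slc16a1 had 7.61 against 3.81 FPKM, 50.1% of WT (43.9% to 57%). Of the enzymes, Psat1 of serine synthesis had 125 against 72.7 FPKM, 58.2% of WT (55.7% to 60.7%) and Asns, asparagine synthetase, had 36 against 20.7 FPKM. These last genes belong to a list of the unfolded protein and amino acid response, of which 0 of 27 were past 2-fold and the median was 0.09.

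Among 145 compared solute carriers 5 were higher and 0 lower, with a median of 0.03. Slc15a2, a peptide carrier, had 0.591 against 4.78 FPKM, Slc26a11, an anion exchanger, had 2.58 against 10.5 FPKM, and Slc52a3, a riboflavin carrier, had 4.36 against 14.1 FPKM. Of the cholesterol exporters, Abca1 had 0.547 against 2.15 FPKM and Abcg1 4.66 against 9.03 FPKM, of which Abca1 was past 2-fold. Of 22 BCL2 family genes 1 was higher, the cell death gene Bmf at 0.464 against 2.05 FPKM, and 0 were lower. Slc15a2, Abca1 and Bmf were each compared only through KO.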
